A study of Homo sapiens with 6 samples.

Results

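Respiratory complex III, cytochrome c, respiratory complex IV and ATP synthase form the last stretch of oxidative phosphorylation in the inner mitochondrial membrane. Their nuclear genes were followed in ARPE-19, an established line of human retinal pigment epithelium (RPE) with a wild type genotype, after 72 h in high glucose medium (3 libraries) or in normal glucose medium (3 libraries). The labels give no glucose concentration and name no osmotic control. They also leave unsaid whether each library is its own culture, and a p-value here reflects variation among libraries that could be purely technical. Members were taken by name. A locus counted if it holds an annotated transcript and a protein-coding type and a gene symbol that starts with UQCR, COX4 to COX8 or ATP5, or that is CYC1 or CYCS. This gave 49 of the 60835 loci in the table, 18304 of which have a protein-coding transcript. Of the 49, 10 belong to complex III, 1 is cytochrome c, 17 belong to complex IV and 19 to ATP synthase. The other 2 hold only a subunit pseudogene beside another gene (ATP5PBP5 with JHY, COX5BP7 with CBX7) and were set apart, which left 47 members.

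Complex III takes electrons from ubiquinol and hands them to cytochrome c, a small soluble carrier, and complex IV passes them from cytochrome c to oxygen. Complexes III and IV help build the proton gradient that drives ATP synthase, a rotary enzyme with a catalytic head (F1), a membrane ring of c subunits that turns, and a peripheral stalk that holds the head still. The catalytic core of complex IV and a few membrane subunits of the other complexes are made from mitochondrial DNA, and nuclear genes encode all the rest. RPE cells in the eye are known to rely on oxidative phosphorylation, which spares glucose for the photoreceptors they support.

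The libraries held 81616741 to 87748820 counts, at 30253 to 31698 loci. Levels below are CPM, the counts of a locus relative to the library total after TMM scaling, and a log2 change is the edgeR estimate for high minus normal glucose. A locus was called where the edgeR p, adjusted by the Benjamini-Hochberg method over 25025 tested loci, was under 0.05. The share of tested loci called was 19.6% (9.75% higher and 9.86% lower in high glucose), and among 13786 tested protein-coding loci it was 25.5% (13.1% higher and 12.4% lower). The spread between libraries (edgeR biological coefficient of variation) was 27.2% within high glucose and 41% within normal glucose. Among RPE genes, RPE65, the visual cycle isomerase that defines the tissue, was at or below 0.0456 CPM in every library, whereas OTX2, an RPE transcription factor, lay at 40.2 to 45.6 CPM in high and 31.3 to 53.0 CPM in normal glucose. KRT8, an epithelial keratin, was at 1223, 1258 and 1247 CPM in high glucose and at 299.5, 259.6 and 621.9 CPM in normal glucose. Normal glucose 3 thus lay closer to the high glucose libraries for this gene than normal glucose 1 and 2 did. Of 9 tested RPE markers, 2 rose (KRT8 and KRT18) and 1 fell (BEST1, a chloride channel), and summed levels over the 12 listed were 2199 to 2328 CPM in high and 590.3 to 1138 CPM in normal glucose. Those sums are mostly the 2 keratins, while 6 of the 9 tested markers had negative estimates and the median log2 change was -0.28. Of 5 fibroblast markers, 1 rose (PDGFRB) and 2 fell (COL1A1 and TWIST1), with sums of 220.4 to 226.7 CPM in high and 163.7 to 268.8 CPM in normal glucose. Of other cell types, PTPRC (leukocytes) and CDH5 (endothelium) stayed at or below 0.0962 CPM throughout, and PECAM1, a second endothelial gene, reached up to 0.182 CPM in high and 0.806 CPM in normal glucose. The locus of the macrophage gene CD68, which also holds EIF4A1 and SENP3, lay at 426.6 to 543.5 CPM in high and 342.3 to 473.9 CPM in normal glucose. PDE6B, a photoreceptor gene, rose to 15.3 ± 4.42 CPM in high glucose, against 6.19 ± 0.430 CPM in normal glucose (SD, n = 3 each; edgeR adjusted p = 0.0109). The part of these marker differences in the results below was not tested, and in bulk RNA a change in the cells present and a change in RNA per cell cannot be told apart.

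Few of the genes passed the threshold, and those that did changed by less than 2-fold. Of 42 tested members, 5 rose in high glucose (ATP5IF1, ATP5PD, ATP5PB, COX6C and COX7C) and 1 fell (COX4I1), or 14.3% against 25.5% of protein-coding loci. Estimates were positive at 33 members and negative at 9, with a median log2 change of 0.23 against 0.0090 over tested protein-coding loci, where 7003 were positive and 6783 negative. ATP synthase had 3 risen and 0 fallen genes of 18 tested (16.7%) and a median of 0.31. Complex IV had 2 risen and 1 fallen of 13 (23.1%) and a median of 0.18, and complex III had 0 of 10 and a median of 0.047. The estimate exceeded 1.5-fold at 6 tested members, of which ATP5IF1 and ATP5PD were called. The share of protein-coding loci beyond 1.5-fold was not determined, so that count has no comparison. Estimates over 2-fold were found at 0 tested members, against 16.6% of tested protein-coding loci. The SE of a member's log2 change had a median of 0.16.

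Promoters of 5 of the 6 called genes, all but COX6C, are shown here to compare the risen genes with the fallen one. The following lines give, from RefSeq on GRCh38.p14, 250 bases before to 50 bases after the start of the gene, and capitals mark matches to short motifs searched on both strands.
ATP5IF1: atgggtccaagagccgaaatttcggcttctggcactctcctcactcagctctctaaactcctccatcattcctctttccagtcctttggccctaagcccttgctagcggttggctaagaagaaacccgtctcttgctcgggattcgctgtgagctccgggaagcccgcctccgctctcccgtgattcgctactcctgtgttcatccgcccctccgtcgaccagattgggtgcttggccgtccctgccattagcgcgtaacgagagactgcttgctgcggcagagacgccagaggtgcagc
ATP5PD: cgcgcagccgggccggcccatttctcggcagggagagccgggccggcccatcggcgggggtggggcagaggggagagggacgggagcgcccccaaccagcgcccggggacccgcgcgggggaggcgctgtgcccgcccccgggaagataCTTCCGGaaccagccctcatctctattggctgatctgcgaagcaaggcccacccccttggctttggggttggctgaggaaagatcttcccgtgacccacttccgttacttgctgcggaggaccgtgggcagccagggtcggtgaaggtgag
ATP5PB: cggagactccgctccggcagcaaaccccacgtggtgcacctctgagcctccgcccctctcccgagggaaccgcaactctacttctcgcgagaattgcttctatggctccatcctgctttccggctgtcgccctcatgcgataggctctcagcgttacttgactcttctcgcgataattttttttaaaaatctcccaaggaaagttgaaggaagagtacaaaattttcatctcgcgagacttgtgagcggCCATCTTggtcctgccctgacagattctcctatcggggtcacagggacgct
COX7C: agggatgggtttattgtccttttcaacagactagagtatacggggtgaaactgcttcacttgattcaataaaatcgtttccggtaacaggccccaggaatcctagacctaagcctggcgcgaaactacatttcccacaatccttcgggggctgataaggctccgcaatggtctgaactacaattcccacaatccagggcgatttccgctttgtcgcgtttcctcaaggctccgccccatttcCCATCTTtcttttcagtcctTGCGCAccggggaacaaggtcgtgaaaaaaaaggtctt
COX4I1: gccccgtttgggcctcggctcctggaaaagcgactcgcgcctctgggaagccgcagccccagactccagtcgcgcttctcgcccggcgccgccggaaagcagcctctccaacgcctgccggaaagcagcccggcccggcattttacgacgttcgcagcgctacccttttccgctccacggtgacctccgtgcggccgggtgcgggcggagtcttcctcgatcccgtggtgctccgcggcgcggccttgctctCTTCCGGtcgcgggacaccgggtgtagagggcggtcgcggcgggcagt
These lie at chr1:28235874-28236173 (plus strand) for ATP5IF1, chr17:75046920-75047219 (minus strand) for ATP5PD, chr1:111449214-111449513 (plus strand) for ATP5PB, chr5:86617691-86617990 (plus strand) for COX7C and chr16:85799445-85799744 (plus strand) for COX4I1.

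The motifs were TGCGCA, the core of the NRF1 site, CCGGAAG for ETS factors such as GABP, AAGATGG for YY1 and AAGGTCA for estrogen-related receptors, 4 kinds of factor known to act on respiratory chain genes. ATP5PD and COX4I1 each hold an ETS match on the reverse strand, ATP5PB holds a YY1 match, COX7C holds a YY1 and an NRF1 match, and these letters are not in the window of ATP5IF1. The motif letters do not overlap within these windows. Across the 36 members found in the table, 13 (36.1%) had the ETS match, 8 (22.2%) the YY1 match, 7 (19.4%) the NRF1 match and 3 (8.33%) the receptor match, against 10.3%, 5.84%, 8.24% and 3.92% of all 35116 promoters of the same length. At least 1 match was in 20 members (55.6%) and in 24.9% of all promoters. The matches are a description of the letters, and the ETS letters occur both in a risen gene (ATP5PD) and in the fallen one (COX4I1).

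Among ATP synthase genes, the largest change was at ATP5IF1 (chromosome 1, 28236109 to 28238105, plus strand), the inhibitory factor that binds F1 and blocks the hydrolysis of ATP. It was at 34.3, 37.0 and 32.9 CPM in high glucose and at 13.9, 16.4 and 24.1 CPM in normal glucose. The groups did not overlap, and normal glucose 3 was the library nearest to the high glucose ones. ATP5IF1 averaged 34.7 ± 2.11 CPM in high and 18.2 ± 5.30 CPM in normal glucose (SD, n = 3 each), a log2 change of 0.94 (SE 0.21; edgeR adjusted p = 0.0240).

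With all 6 libraries, the peripheral stalk held the other risen genes of the enzyme. ATP5PD, stalk subunit d (chromosome 17, 75038863 to 75046985, minus strand), was at 52.8, 52.2 and 46.1 CPM in high and 31.5, 28.9 and 36.1 CPM in normal glucose. It averaged 50.4 ± 3.69 CPM in high and 32.2 ± 3.64 CPM in normal glucose (SD, n = 3 each), with a log2 change of 0.65 (SE 0.13; edgeR adjusted p = 0.0162). ATP5PB, stalk subunit b (chromosome 1, 111448838 to 111461332, plus strand), was at 144.4, 146.4 and 147.4 CPM in high and 105.9, 99.7 and 121.9 CPM in normal glucose. In both genes every high glucose library lay above every normal glucose library, and for ATP5PB the high glucose libraries were nearly level. ATP5PB averaged 146 ± 1.57 CPM in high and 109 ± 11.5 CPM in normal glucose (SD, n = 3 each; log2 change 0.42, SE 0.11; edgeR adjusted p = 0.0367). The remaining stalk genes did not pass. ATP5PF, factor 6, was at 53.8, 51.8 and 44.1 CPM in high and 37.4, 41.0 and 46.4 CPM in normal glucose (log2 change 0.26; edgeR adjusted p = 0.209). ATP5PO, which joins the stalk to the head and shares its locus with DONSON, was at 75.0, 108.1 and 80.2 CPM in high and 73.8, 64.6 and 83.6 CPM in normal glucose (0.25; adjusted p = 0.360).

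**Figure D1:**
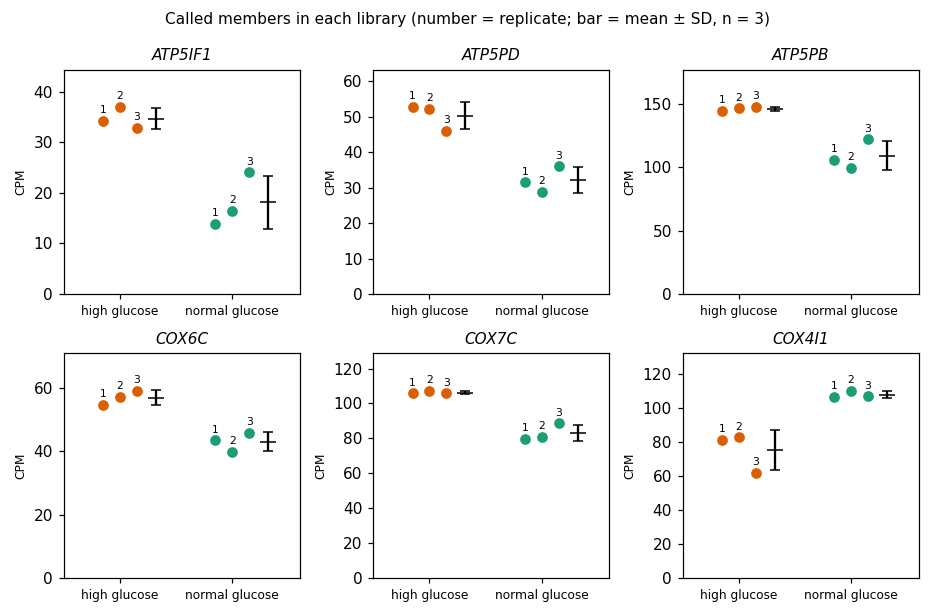
CPM (y axis, from 0) of the 6 called members in high glucose (left, orange) and normal glucose (right, green), 1 point per library with its replicate number, and black bars for mean ± SD (n = 3). The high glucose points lie above the normal glucose points in 5 panels and below them for COX4I1, and normal glucose 3 is the highest normal glucose point in the 5 panels of risen genes.

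The F1 head, where ATP is made, had 0 called genes of 5 and a median log2 change of 0.21. Without normal glucose 3, 4 of the 5 were called higher (median 0.42), and 2 of the 4 stalk genes were (median 0.43). In that fit 20.8% of tested protein-coding loci were called higher. ATP5F1B, the catalytic beta subunit, was at 350.2, 341.1 and 411.9 CPM in high and 288.8, 259.6 and 359.2 CPM in normal glucose (log2 change 0.28, SE 0.15; edgeR adjusted p = 0.232). ATP5F1A, the alpha subunit, was at 384.8, 362.9 and 370.6 CPM in high and 323.6, 267.4 and 412.4 CPM in normal glucose (0.16; adjusted p = 0.544). In the alpha gene normal glucose 3 was the highest of all 6 libraries, and in the beta gene it lay within the high glucose range. ATP5F1C, the gamma subunit of the central shaft, was at 119.3, 117.6 and 118.1 CPM in high and 89.0, 88.1 and 129.0 CPM in normal glucose (0.21; adjusted p = 0.406). The delta subunit gene ATP5F1D had the lowest estimate of the enzyme, with 19.0, 26.9 and 18.0 CPM in high and 16.4, 25.1 and 35.9 CPM in normal glucose (-0.28; adjusted p = 0.562). ATP5F1E, the epsilon subunit, had an estimate of 0.33 (adjusted p = 0.264).

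The c ring is encoded by 3 genes whose products differ in the targeting sequence but give the same mature c subunit. ATP5MC3 (locus shared with a Y RNA) was at 56.7, 60.3 and 59.5 CPM in high and 28.5, 28.8 and 51.1 CPM in normal glucose (log2 change 0.70, SE 0.24; edgeR adjusted p = 0.0787). ATP5MC2 (shared with the clone gene AC073594) was at 125.3, 124.5 and 138.3 CPM in high and 120.6, 116.4 and 141.1 CPM in normal glucose (0.038; adjusted p = 0.849), and ATP5MC1 was at 24.1, 25.0 and 23.1 CPM in high and 20.2, 10.8 and 25.7 CPM in normal glucose (0.35; adjusted p = 0.450). Of the 3, ATP5MC3 had groups that did not overlap, with normal glucose 3 close beneath the high glucose libraries. The log2 ratio of ATP5MC2 to ATP5MC3 was 1.90 ± 0.086 in high and 2.62 ± 0.34 in normal glucose (SD, n = 3 each; exact permutation p = 0.1, the smallest that 3 against 3 allows; 0.2 adjusted over the 6 ratios tested).

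Of 5 tested genes for other membrane subunits, 4 had positive estimates, with a median of 0.53 over the 5, and 0 were called. ATP5ME, subunit e of the dimer interface, was at 29.7, 33.3 and 30.3 CPM in high and 13.2, 16.9 and 25.6 CPM in normal glucose (log2 change 0.74, SE 0.24; edgeR adjusted p = 0.0708). ATP5MD (now ATP5MK, locus shared with MIR1307) was at 62.2, 61.1 and 70.2 CPM in high and 43.3, 36.2 and 53.3 CPM in normal glucose (0.54; adjusted p = 0.0537). The groups did not overlap at these genes or at ATP5MPL (now ATP5MJ; 0.53; adjusted p = 0.0620), yet none passed the threshold. ATP5MF, subunit f, in a locus with PTCD1, had 97.5, 105.7 and 100.2 CPM in high and 68.3, 85.8 and 110.1 CPM in normal glucose (0.20; adjusted p = 0.469). ATP5MG, subunit g, cannot be read alone, since its locus also holds KMT2A, TTC36 and TMEM25. That locus was at 247.7, 286.3 and 248.3 CPM in high and 298.4, 316.0 and 282.0 CPM in normal glucose (-0.20; adjusted p = 0.242). ATP5MGL, a copy of the subunit g gene, had 4, 16 and 22 counts in high and 4, 4 and 8 counts in normal glucose and was too low to be tested.

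Complex IV held called genes in both directions. COX4I1, the ubiquitous form of subunit 4 through which ATP is known to inhibit the enzyme, was the fallen one (chromosome 16, 85798633 to 85807068, plus strand). It was at 81.3, 82.8 and 61.7 CPM in high and 106.7, 110.1 and 106.8 CPM in normal glucose. All 3 high glucose libraries were lower than all 3 normal glucose libraries, and here the high glucose group had the wider spread. COX4I1 averaged 75.3 ± 11.8 CPM in high and 108 ± 1.93 CPM in normal glucose (SD, n = 3 each), a log2 change of -0.52 (SE 0.13; edgeR adjusted p = 0.0373). Its paralog COX4I2, which lung and oxygen-poor cells are known to use, was at 0 counts in all 6 libraries, so no switch between the forms could be measured. If 1 fragment counts about 4 times, a count of 0 allows up to 12 counts for counting error alone. That is 0.135 to 0.146 CPM per library.

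COX6C and COX7C, small membrane subunits that surround the core, were the risen ones. COX6C (chromosome 8, 99873200 to 99893707, minus strand) was at 54.6, 57.2 and 59.1 CPM in high and 43.4, 39.9 and 45.8 CPM in normal glucose. COX7C (chromosome 5, 86617928 to 86620766, plus strand; locus shared with SNORD138, a small nucleolar RNA) was at 105.7, 107.2 and 105.8 CPM in high and 79.7, 80.9 and 88.5 CPM in normal glucose. Neither gene showed any overlap between the groups. COX6C averaged 57.0 ± 2.24 CPM in high and 43.1 ± 3.0 CPM in normal glucose (SD, n = 3 each; log2 change 0.40, SE 0.11; edgeR adjusted p = 0.0384). COX7C averaged 106 ± 0.846 CPM in high and 83.1 ± 4.80 CPM in normal glucose (SD, n = 3 each; log2 change 0.36, SE 0.095; edgeR adjusted p = 0.0409).

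The subunit 7A family had estimates of both signs. COX7A2L, known to link complexes III and IV into supercomplexes, was at 48.3, 48.9 and 43.5 CPM in high and 64.1, 59.5 and 57.3 CPM in normal glucose (log2 change -0.36, SE 0.11; edgeR adjusted p = 0.0544). COX7A2, the widely expressed form, was at 36.1, 35.8 and 39.5 CPM in high and 27.5, 25.2 and 37.1 CPM in normal glucose (0.31; adjusted p = 0.232), and COX7A1, the heart and muscle form, at 3.80, 2.14 and 3.28 CPM in high and 1.64, 1.33 and 2.30 CPM in normal glucose (0.81, SE 0.31; adjusted p = 0.117). For COX7A2L no library of one group reached the range of the other, while normal glucose 3 lay inside the high glucose range for COX7A2 and COX7A1. The log2 ratio of COX7A2L to COX7A2 was -1.21 ± 0.17 in high and -0.51 ± 0.35 in normal glucose (SD, n = 3 each; exact permutation p = 0.1; 0.2 adjusted over the 6 ratios). That of COX7A1 to COX7A2 was -1.93 ± 0.41 in high and -2.41 ± 0.12 in normal glucose (exact permutation p = 0.2, adjusted 0.3).

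The other complex IV genes did not pass. COX6A1, the liver form of subunit 6A in a locus with GATC, was at 215.8, 227.9 and 226.3 CPM in high and 228.7, 228.8 and 260.9 CPM in normal glucose (log2 change -0.10; edgeR adjusted p = 0.526), lower in every high glucose library by a narrow margin. COX8A, in a locus with OTUB1, was at 163.8, 157.0 and 151.2 CPM in high and 133.8, 130.8 and 170.5 CPM in normal glucose (0.12; adjusted p = 0.570). COX5A and COX5B, which sit on the matrix side, had estimates of 0.18 and 0.040: COX5A was at 29.9, 33.2 and 27.6 CPM in high and 21.1, 23.9 and 35.0 CPM in normal glucose, and COX5B at 82.5, 73.3 and 86.1 CPM in high and 76.5, 69.3 and 89.6 CPM in normal glucose. In COX8A, COX5A and COX5B alike, normal glucose 3 was above every other library. COX6B1, on the side that faces cytochrome c, was at 58.4, 83.3 and 63.8 CPM in high and 47.6, 41.1 and 66.5 CPM in normal glucose (0.41; adjusted p = 0.232), and COX7B had an estimate of 0.019 (adjusted p = 0.967). The muscle form COX6A2 and COX7B2 were at 0 counts in every library. COX8C had 4 counts in high glucose 3 and in normal glucose 2 alone, and COX6B2, although tested, had 14, 12 and 0 counts in high and 0, 8 and 12 counts in normal glucose, at or near the counting floor.

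Complex III had 0 called genes of 10 (DESeq2 called 1, UQCRC1, with an adjusted p of 0.0266). In edgeR, 4 of the 10 had an unadjusted p under 0.05, as did 5829 of 13786 tested protein-coding loci. UQCRC1 and UQCRC2 are the paired core proteins of the matrix side. UQCRC1 was at 103.3, 91.0 and 102.1 CPM in high and 121.9, 128.3 and 121.3 CPM in normal glucose (log2 change -0.33, SE 0.099; edgeR adjusted p = 0.0606). UQCRC2 was at 116.1, 121.5 and 122.7 CPM in high and 110.4, 95.5 and 99.1 CPM in normal glucose (0.24; adjusted p = 0.142). The pair thus had estimates of opposite sign, each without overlap between the groups and neither past the threshold. The redox subunits had estimates near 0. UQCRFS1, the Rieske iron-sulfur protein, was at 105.1, 111.4 and 110.6 CPM in high and 106.1, 104.1 and 108.8 CPM in normal glucose (0.036, SE 0.091; adjusted p = 0.817). CYC1, cytochrome c1, was at 49.4, 51.5 and 48.0 CPM in high and 42.5, 43.2 and 57.3 CPM in normal glucose (0.058; adjusted p = 0.812).

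Among the small complex III subunits, UQCRQ was at 47.3, 38.5 and 35.9 CPM in high and 21.2, 18.7 and 35.4 CPM in normal glucose (log2 change 0.69, SE 0.25; edgeR adjusted p = 0.101). UQCR10 was at 72.7, 69.5 and 66.4 CPM in high and 39.1, 44.2 and 63.4 CPM in normal glucose (0.51, SE 0.19; adjusted p = 0.0992). In both, the groups did not overlap, but normal glucose 3 came within a few CPM of the high glucose libraries. UQCRB was at 63.3, 61.8 and 52.1 CPM in high and 38.5, 47.2 and 71.0 CPM in normal glucose (0.18; adjusted p = 0.630). UQCRH, the hinge protein that aids electron transfer to cytochrome c, was at 31.9, 29.2 and 30.8 CPM in high and 27.7, 30.8 and 37.5 CPM in normal glucose (-0.063; adjusted p = 0.793). Its near-identical copy UQCRHL was at 1.08, 0.752 and 1.12 CPM in high and 0.878, 0.886 and 1.35 CPM in normal glucose (-0.079; adjusted p = 0.888), and reads could be split between these copies. UQCR11 cannot be read apart from MBD3, which lies in the same locus, at 206.4, 181.3 and 183.1 CPM in high and 210.0, 209.4 and 239.2 CPM in normal glucose (-0.21; adjusted p = 0.228). CYCS, cytochrome c itself, was at 87.2, 72.9 and 79.6 CPM in high and 36.2, 96.9 and 96.0 CPM in normal glucose (0.065, SE 0.35; adjusted p = 0.917). One library, normal glucose 1, was far below all others there, and without it the estimate was -0.27.

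**Figure D2:**
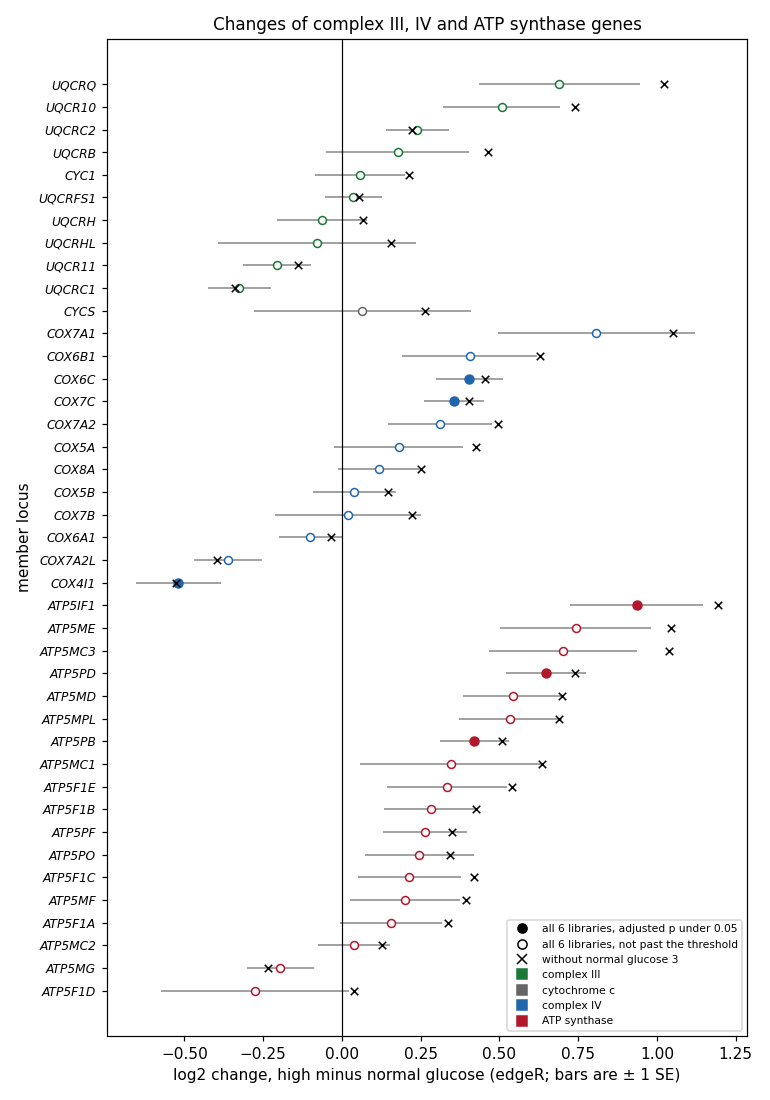
Log2 change (x axis, high minus normal glucose, edgeR, bars ± 1 SE) of the 41 tested members with a count in every library, by complex, with filled points for called members and crosses for the estimate without normal glucose 3. Most crosses lie to the right of their point, and the ATP synthase genes sit mostly above 0, up to 0.94 at ATP5IF1.

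Calls of the 6 members changed with the libraries used. Without high glucose 1, 2 or 3, or without normal glucose 1, 0 of the 6 were called, with edgeR adjusted p of 0.0730 to 0.128, 0.0755 to 0.145, 0.0511 to 0.136 and 0.0522 to 0.105, and without normal glucose 2 only ATP5PD was (0.0482, the others up to 0.0995). An omission leaves fewer libraries for the test. Without normal glucose 3 all 6 were called (0.00169 to 0.0382), and the count over 43 tested members became 18 higher and 3 lower, against 20.8% higher and 18.3% lower (39.1% in all) among 14056 tested protein-coding loci and 14.8% higher and 13.9% lower (28.7% in all) among 26531 tested loci. The median log2 change was then 0.40 over all members, 0.51 in ATP synthase (11 higher, 0 lower of 19), 0.40 in complex IV (5 higher, 2 lower of 13) and 0.18 in complex III (2 higher, 1 lower of 10). With no filter on low counts ATP5PB (0.0587), COX6C (0.0688) and COX7C (0.0794) were not called, nor was COX4I1 with scaling to library size only (0.0507). Without normal glucose 3 the genes called lower were COX4I1, COX7A2L and UQCRC1, and ATP5MC3 (1.04; edgeR adjusted p = 8.89e-04), UQCRQ (1.02; 0.00520) and UQCR10 (0.74; 0.00361) were among those called higher.

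Normal glucose 3 stood apart over the whole table as well: the chi-square per locus between its counts and those of normal glucose 1 and 2 was 336.3 and 388.3, against 142.1 between normal glucose 1 and 2. Normal glucose 3 was the highest normal glucose library at 36 of 42 members (85.7%), against 41.8% of tested protein-coding loci, 62.2% of complex I loci and 87.5% of the 8 genes for cristae organisation, and above every high glucose library at 19 members (45.2%), against 39.3%. The median deviation of ATP synthase genes from their mean over the 6 libraries was 0.21, 0.21 and 0.14 (log2) in high glucose 1, 2 and 3, and -0.29, -0.35 and 0.12 in normal glucose 1, 2 and 3. For complex III it was 0.052, 0.069 and 0.013 in high and -0.17, -0.16 and 0.21 in normal glucose, so there normal glucose 3 lay above the high glucose libraries. Complex IV had 0.11, 0.021 and 0.063 in high and -0.18, -0.22 and 0.18 in normal glucose. Groups did not overlap at 12 members that were higher and 5 that were lower, against 25.9% and 23.6% of tested protein-coding loci (49.5% together) and 21.8% and 20.5% of all tested loci (42.3% together).

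**Figure D3:**
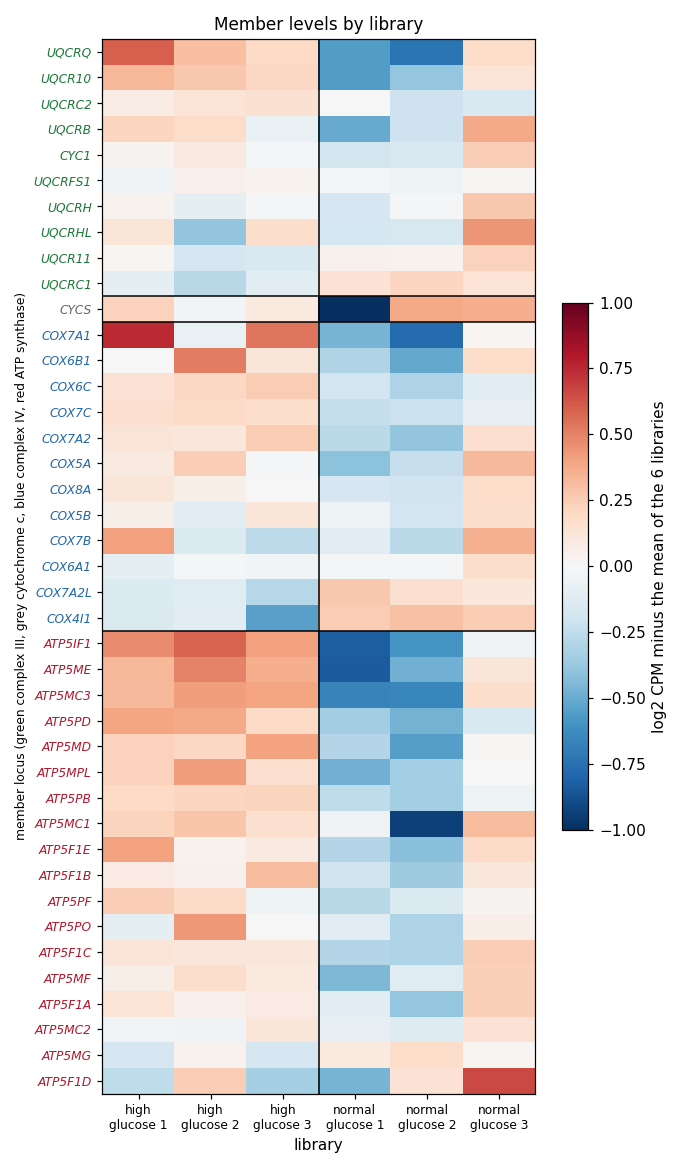
Log2 CPM minus the mean of the 6 libraries (colour, red above and blue below the mean) for the 41 tested members with a count in every library (rows, by complex), with high glucose libraries left of normal glucose libraries. Normal glucose 1 and 2 are blue in most rows, while normal glucose 3 is mostly red, as the medians of -0.29, -0.35 and 0.12 for ATP synthase show.

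Summed levels include the loci shared with other genes. Over the 19 ATP synthase loci the sum was 1953, 2009 and 2005 CPM in high and 1620, 1548 and 2004 CPM in normal glucose, a ratio of means of 1.15. For complex III the sums were 796.5, 756.3 and 752.8 CPM in high and 718.3, 722.3 and 834.3 CPM in normal glucose (ratio 1.01), and for complex IV 937.3, 947.8 and 903.6 CPM in high and 870.5, 846.5 and 1015 CPM in normal glucose (ratio 1.02). Over loci that hold a single gene name, the mean sums were 1287 CPM in high and 1057 CPM in normal glucose for ATP synthase (ratio 1.22), 578.2 CPM in high and 538.8 CPM in normal glucose for complex III (1.07), and 442.7 CPM in high and 443.1 CPM in normal glucose for complex IV (0.999). Sums overlapped between the groups in every complex. Levels were not ranked between genes per length, since the lengths implied by the deposited FPKM values varied widely. They were 51650 bases at the ATP5MG locus, which other genes share, 15510 at UQCRB, a single-name locus, and 1746 at COX5B. The lengths at ATP5MG and UQCRB are far beyond an mRNA of these subunits. The ratio of ATP5IF1 to ATP5F1B, inhibitor to catalytic subunit, was -3.45 ± 0.23 in high and -4.14 ± 0.25 in normal glucose as log2 FPKM (SD, n = 3 each; exact permutation p = 0.1, adjusted 0.2), and its change of 0.68 does not depend on length.

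The mitochondrial partners of these subunits could not be followed. MT-CYB of complex III, MT-CO1, MT-CO2 and MT-CO3 of complex IV and MT-ATP6 and MT-ATP8 of ATP synthase are listed at 0 in every library, as are all 37 mitochondrial loci, and are treated as not measured. LRPPRC, which stabilises mitochondrial mRNAs, fell to 219.5, 228.6 and 225.0 CPM in high glucose, against 343.9, 333.7 and 313.1 CPM in normal glucose (log2 change -0.56, SE 0.092; edgeR adjusted p = 0.00967). It was the single called gene of 7 factors for mitochondrial mRNA (14.3%, against 25.5% of tested protein-coding loci). The other 6 had positive estimates but were not called, and PTCD1 among them is the same locus as the member ATP5MF.

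For factors that assemble the complexes, the share to compare is the 25.5% called among tested protein-coding loci. Differences from that share were not tested. Of 9 complex III factors, 1 rose and 1 fell (22.2% called), with a median log2 change of 0.35. BCS1L, which inserts the Rieske protein, was at 15.9, 14.5 and 14.1 CPM in high and 7.23, 6.95 and 10.5 CPM in normal glucose (0.85; edgeR adjusted p = 0.0267). UQCC6 (C12orf73 in the table) was at 10.2, 9.17 and 8.26 CPM in high and 30.6, 21.4 and 12.2 CPM in normal glucose (-1.21; adjusted p = 0.0382). In both genes the groups did not overlap.

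Of 28 complex IV factors, 2 rose and 2 fell (14.3%), with a median of -0.0073. COX17, the copper chaperone of the intermembrane space, whose locus also holds POPDC2, fell to 11.8, 12.4 and 11.6 CPM in high glucose, against 21.1, 21.9 and 16.9 CPM in normal glucose (log2 change -0.74; edgeR adjusted p = 0.0161). SMIM20, which aids the early steps around the first core subunit, fell by 0.86 (adjusted p = 0.0475). COA4 rose to 43.7, 48.7 and 47.9 CPM in high glucose, against 29.0, 30.6 and 34.4 CPM in normal glucose (0.58; adjusted p = 0.0177), and COA5 rose by 0.65 (adjusted p = 0.0377). Of 7 ATP synthase factors 1 was called (14.3%). This was TMEM70, needed for the c ring, in a locus with the pseudogene RPS20P21. It fell to 21.0, 23.7 and 21.3 CPM in high glucose, against 28.0, 35.0 and 34.3 CPM in normal glucose (-0.56, edgeR adjusted p = 0.0298). The 3 c ring genes themselves had positive estimates, but 0 were called. The estimate of ATP5MC2 changed sign in 2 of the library omissions.

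Complex I, the entry point for electrons from NADH, also had estimates mostly above 0. Of 37 subunit loci 2 rose and 0 fell (5.41%, against 25.5% of tested protein-coding loci), 28 estimates were positive and 9 negative, and the median log2 change was 0.19. NDUFS5, an accessory subunit, was among the risen ones, with a mean of 23.1 ± 3.08 CPM in high and 12.6 ± 2.56 CPM in normal glucose (SD, n = 3 each; log2 change 0.87; edgeR adjusted p = 0.0213). Without normal glucose 3 the complex I count was 13 higher and 1 lower of 37, against 20.8% higher and 18.3% lower among protein-coding loci in that fit. Of 4 complex II loci 1 rose, SDHD (0.40; adjusted p = 0.0279), which shares its locus with TEX12 and BCO2. Of 8 genes for cristae organisation 1 rose, OPA1, which shapes the inner membrane folds (0.38; adjusted p = 0.0427). Outside the naming rule, NDUFA4, now counted to complex IV, had an estimate of 0.33 (adjusted p = 0.287). Its paralog NDUFA4L2, known as a hypoxia-induced gene, was at 0.235, 0.137 and 0.0850 CPM in high glucose, at or near the counting floor, and at 1.11, 0.385 and 0.481 CPM in normal glucose (adjusted p = 0.0532).

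The 12 called genes of these lists depended on single libraries as the members did. Without high glucose 1, 2 or 3, 0 of the 12 were called (edgeR adjusted p of 0.0554 to 0.143, 0.0553 to 0.138 and 0.0559 to 0.158). LRPPRC (0.0309) and TMEM70 (0.0318) were called without normal glucose 1, where the others reached up to 0.105. Without normal glucose 2, 3 were called, LRPPRC (0.0277) and COX17 (0.0496) among them, and the others reached up to 0.132. All 12 were called without normal glucose 3 (0.00196 to 0.0476).

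**Figure D4:**
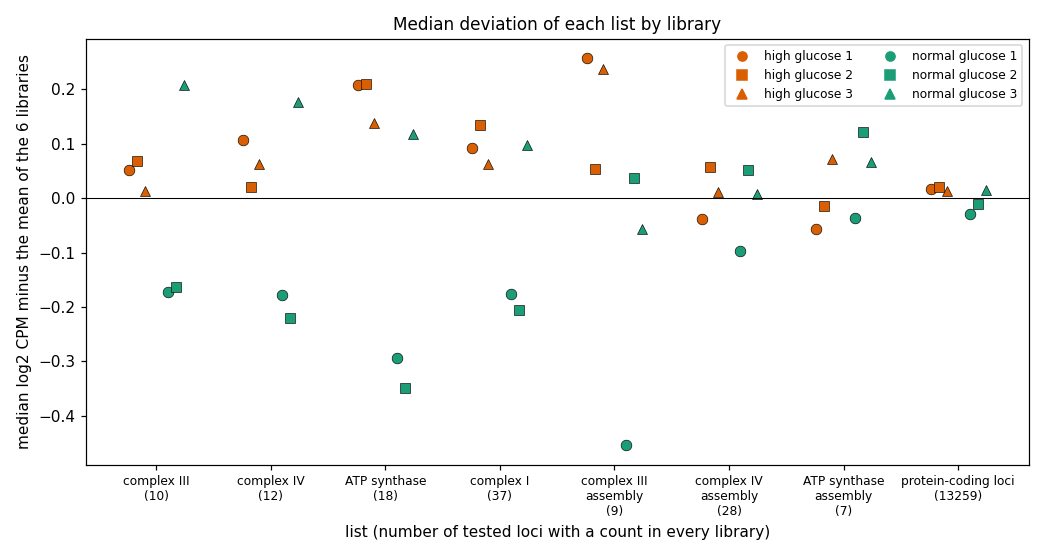
Median over the loci of each list of log2 CPM minus the mean of the 6 libraries (y axis), 1 point per library, with high glucose (orange) left of normal glucose (green) and marker shapes for replicate 1, 2 and 3. In ATP synthase and complex I the high glucose points lie above normal glucose 1 and 2, and normal glucose 3 lies near or among them, while all 6 points of the protein-coding loci lie close to 0.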

How the data were processed

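Trizol RNA was enriched on oligo-dT beads and sequenced as read pairs, per the labels' protocols. The authors deposited 1 table that gives each locus a count and an FPKM in every library. The deposited counts are raw whole numbers, and the deposited FPKM values are scaled to length and library size by the authors, per the file headers. Bowtie 0.12.2 and mm8, a mouse build, are named in the submitters' processing notes, but the identifiers and positions are human, and all 49 loci overlap the GRCh38.p14 RefSeq position of their gene, and positions printed are the table's own. The counting tool and any use of strand are not given in the sources used here, so antisense reads cannot be told apart. Values of 4 were more frequent (9555) than values of 3 (4210) or 5 (2659), so 1 fragment may count about 4 times.

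High minus normal glucose was tested with edgeR 4.0.16 in R 4.3.3 (filterByExpr, TMM scaling, a 2-sided quasi-likelihood test with glmQLFit and glmQLFTest and no covariates, Benjamini-Hochberg adjustment over 25025 loci). SE is the size of the log2 change divided by the square root of F. Ratios of paralogs used log2 FPKM and a 2-sided exact permutation test (Python 3.11.15, scipy 1.17.1). Alternatives were other scalings and filters, DESeq2 1.42.0, limma 3.58.1, a replicate block and the omission of each library. The members and lists were chosen with earlier results of these data known. Named genes are the called members, the 3 largest changes in each direction per complex, fixed subunits and the called genes of each list; other members are named to account for all. Single values of 1 list gene that meets this rule are not reported here. On simulated data with 23940 loci, the edgeR step called 36% of 100 loci changed 2-fold and 98% of 100 changed 4-fold. No other loci were changed there, whereas 4906 of 25025 were called in the data. These shares therefore do not say how many changed members the test would miss. The design had stated edgeR for counts, which applied.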

Additional observations from a re-analysis of the deposited data

How the results depend on the processing

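With all libraries, RLE scaling changed no member's call. Calls of higher ATP synthase genes numbered 3 in the reported test, 5 with upper-quartile scaling, library size only, a filter at 1 CPM or counts divided by 4, 6 with limma on log2(FPKM + 1) or log2(FPKM + 0.1), and 7 with DESeq2 or with voom and group weights. Over all members, 5 higher calls became 2 with no filter, 8 with limma at either pseudocount, and 9 with DESeq2 or voom; 1 lower call became 0 with library size only (COX4I1, adjusted p = 0.0507), and 3 with the 1 CPM filter, DESeq2 or counts divided by 4. In complex IV, 2 higher calls became 0 with no filter and 1 with single-name loci, and 1 lower call became 0 with library size only and 2 with the 1 CPM filter, DESeq2 or counts divided by 4. In complex III, 0 lower calls became 1 with these same 3 settings. The cause was not tested. Leaving out each library in turn gave 0 to 18 higher and 0 to 3 lower calls over all members, 0 to 11 higher in ATP synthase, 0 to 5 higher and 0 to 2 lower in complex IV, and 0 to 2 higher and 0 to 1 lower in complex III, with 1421 to 7615 called loci over the table against 4906. The median log2 change ranged over these omissions from 0.13 to 0.40 (all members), 0.22 to 0.51 (ATP synthase), 0.035 to 0.40 (complex IV) and -0.0098 to 0.18 (complex III), the highest each time without normal glucose 3. Libraries with the same number did not deviate together (correlations of -0.017, -0.00942 and -0.000759), so no pairing was assumed; with the replicate number as a block, 2545 loci, 1 higher member (ATP5IF1, in ATP synthase) and 0 lower members were called, with 0 higher and 0 lower in complex IV. Estimates kept their direction in every setting at 32 of 42 tested members, the 6 called ones included. At the other 10, all uncalled, the log2 change crossed 0 when a library was left out, over ranges of -0.52 to 0.040 (ATP5F1D), -0.015 to 0.13 (ATP5MC2), -0.041 to 0.15 (COX5B), -0.27 to 1.05 (COX6B2), -0.21 to 0.22 (COX7B), -0.018 to 0.21 (CYC1), -0.27 to 0.27 (CYCS), -0.0017 to 0.46 (UQCRB), -0.16 to 0.068 (UQCRH) and -0.19 to 0.16 (UQCRHL). Depth limits COX4I2, COX6A2, COX6B2, COX7B2, COX8C and ATP5MGL, which lie at or near the floor.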

Other observations

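Copies of the subunit genes elsewhere in the genome were looked at after the values were seen. Outside the 49 loci, 94 loci carry a pseudogene name that starts with UQCR, COX4 to COX8 or ATP5. Their counts came to 0.337% of those of the members. Pseudogenes of CYCS and CYC1 were not covered by this search, although both genes are counted among the members. Of all tested loci, 9.75% were called higher and 9.86% lower. Among the 12 of these pseudogene loci that were tested, 0 were higher and 1 was lower in high glucose. This was the locus of COX5BP2, which also holds the clone gene AL138828. It was at 1.18, 0.98 and 1.34 CPM in high glucose and at 4.99, 6.70 and 3.60 CPM in normal glucose, without overlap. COX5BP2 averaged 1.16 ± 0.178 CPM in high and 5.10 ± 1.56 CPM in normal glucose (SD, n = 3 each), a log2 change of -2.13 (SE 0.29; edgeR adjusted p = 0.00574, at most 0.0369 when any library was left out). COX5B itself had an estimate of 0.040. Which of the names in that locus the reads come from was not tested.

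Of the 2 loci set apart from the members, JHY with ATP5PBP5 was at 21.4, 20.2 and 18.5 CPM in high and 30.6, 29.8 and 23.8 CPM in normal glucose (log2 change -0.49; edgeR adjusted p = 0.0541), and CBX7 with COX5BP7 had an estimate of -0.11 (adjusted p = 0.652).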
